A study of Mus musculus with 6 samples.

Results

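The 10 genes described here are genes of retinoic acid metabolism and signalling, measured in long-term hematopoietic stem cells (LT-HSCs) of old mice, sorted by the surface level of CD61 (integrin beta 3). They are Cyp26b1, Rdh10, Dhrs3, Crabp1, Rara, Rarb, Rarg, Rxra, Rxrb and Gprc5c, chosen by symbol, and all 10 were found among the 55450 annotated genes of the count tables. The CD61High libraries held the 10% of LT-HSCs with the most CD61 and the CD61Low libraries the 10% with the least, with 5000 cells sorted for each. There were 3 CD61High and 3 CD61Low libraries, and the titles give a CD61High and a CD61Low library to each of 3 mice, while the protocol speaks of pools of cells. All animals were wild-type (WT) male C57/Bl6 mice of 22 to 24 months, and the sorted cells lacked lineage markers and CD48 and carried Sca1, cKit and CD150. Young animals were not analysed here.

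Retinoic acid is made inside cells from retinol (vitamin A) by an oxidation to retinal, in which Rdh10 takes part, and a further oxidation by the Aldh1a enzymes. It binds RAR receptors, which sit on DNA as heterodimers with RXR receptors, and it is cleared by the Cyp26 enzymes of the cytochrome P450 family. In mouse bone marrow, retinoid signalling is known to keep the most dormant HSCs out of the cell cycle, and Gprc5c, an orphan G protein-coupled receptor, marks those cells.

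Total counts on genes ran from 21354130 to 26398090 per library. The libraries differed in transcripts of mature marrow cells that the sort was set to remove. A list of 10 genes of neutrophil granules and maturation summed to 5039, 68338 and 236 CPM (counts scaled to a common total) in CD61High of mice 1, 2 and 3, against 20107, 110830 and 1615 CPM in CD61Low, and each of the 10 was lower in CD61High in each mouse. None of them was at 0 in all libraries. The sums of the monocyte and macrophage, B lineage, and T and NK lists were also lower in CD61High in each mouse, and the erythroid sum in mice 1 and 2. Of the single genes, 7 of 8, 4 of 6 and 4 of 6 in the first 3 of these lists were lower in each mouse. In the T and NK list, Klrb1c was lower in each mouse. Nkg7 was higher in CD61High in mice 1 and 3, at 58.0 and 46.2 CPM against 40.3 and 6.59 CPM in CD61Low. The megakaryocyte and platelet sum was higher in CD61High in each mouse. It was 1544, 916 and 1687 CPM in CD61High of mice 1, 2 and 3, against 721, 297 and 1021 CPM in CD61Low. Of the 4 genes for the sort's own markers, Kit stood between 576 and 1965 CPM (adjusted by TMM, as are all levels of single genes given here) and Slamf1, which encodes CD150, between 36.1 and 135 CPM in all 6 libraries, whereas Cd48, the marker the sort selected against, stood at 5.55, 59.9 and 1.07 CPM in CD61High of mice 1, 2 and 3, against 29.6, 130 and 1.68 CPM in CD61Low. The fourth, Ly6a, which encodes Sca1, stood at 119, 73.1 and 71.6 CPM in CD61High of mice 1, 2 and 3, against 282, 155 and 231 CPM in CD61Low. Ly6a fell in CD61High with no overlap of the groups (log2 fold change -1.34, SE 0.16, adjusted p = 0.0446 in edgeR with the mouse as a block, as described below, and 0.652 without the block). Leaving out mouse 1, 2 or 3, the block gave Ly6a an adjusted p of 0.284, 0.019 or 0.146. In bulk RNA, fewer cells of a type and less RNA per cell cannot be told apart.

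Promoter sequence is shown for the member that differed most between the gates, Cyp26b1, and for Rarb, the receptor gene best known as a direct target of retinoic acid. RAR-RXR heterodimers bind direct repeats of a short half-site. The half-site AGGTCA and its variants written as AGTTCA or as GGGTCA or as GGTTCA, repeated in the same orientation with 1, 2 or 5 bases between them, were searched on both strands from 250 bases before to 50 bases after each RefSeq gene start (GRCm38.p6). The table holds 16 promoter entries for 8 of the 10 members. A match stood in 1 of them, that of Rarb, with 5 bases between the half-sites and its first base 53 bases before the start (position -53). Of 32851 promoter entries in the table, 0.0974% hold a repeat with this spacing and 0.588% hold a repeat with any of the 3 spacings. The 120 bases before each start are given 5′ to 3′ on the gene's strand, from chr14:16575477-16575596 (minus strand) for Rarb and chr6:84593811-84593930 (minus strand) for Cyp26b1, with the half-sites of the repeat in capitals.
Rarb: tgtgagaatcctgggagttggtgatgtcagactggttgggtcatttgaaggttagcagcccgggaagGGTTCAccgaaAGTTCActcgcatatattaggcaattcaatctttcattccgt
Cyp26b1: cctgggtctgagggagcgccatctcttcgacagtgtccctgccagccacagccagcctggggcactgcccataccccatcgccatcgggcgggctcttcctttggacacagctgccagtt
Both RefSeq starts lie inside the gene bounds given below, which are those of GENCODE M21. The letters describe these windows only and say nothing of elements elsewhere in the genes.

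Cyp26b1, which clears retinoic acid, fell in CD61High and was the only member called as different. The gene lies on the minus strand of chromosome 6 (84571414 to 84593908, GRCm38). In CD61High of mice 1, 2 and 3 it had 880, 141 and 489 counts, or 37.9, 6.15 and 18.1 CPM, against 2668, 416 and 2152 counts, or 97.3, 20.6 and 80.1 CPM, in CD61Low. It was lower in CD61High in each mouse, and in both gates mouse 2 had the least, so that the CD61High value of mouse 1 lay above the CD61Low value of mouse 2. The means were 20.7 ± 16.0 CPM in CD61High and 66.0 ± 40.3 CPM in CD61Low (SD, n = 3 each). The log2 difference, CD61High minus CD61Low, was -1.36, -1.73 and -2.14 in mice 1, 2 and 3. With the mouse as a block, the log2 fold change was -1.75 (SE 0.19, 95% interval -2.21 to -1.29) at an adjusted p of 0.0436 in edgeR's quasi-likelihood test. Over all genes that fit called 40 of 15610, or 0.256%, and 25 of them, 0.16%, were lower in CD61High. Without the block the spread between mice entered the error, and Cyp26b1 had a log2 fold change of -1.67 (SE 0.81) at an adjusted p of 0.76. That fit called 0 genes over all, with 6.55% of genes at an unadjusted p under 0.05. The block gave -1.96 (adjusted p = 0.168) without mouse 1, -1.77 (adjusted p = 0.0235) without mouse 2 and -1.55 (adjusted p = 0.0992) without mouse 3.

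**Figure D1:**
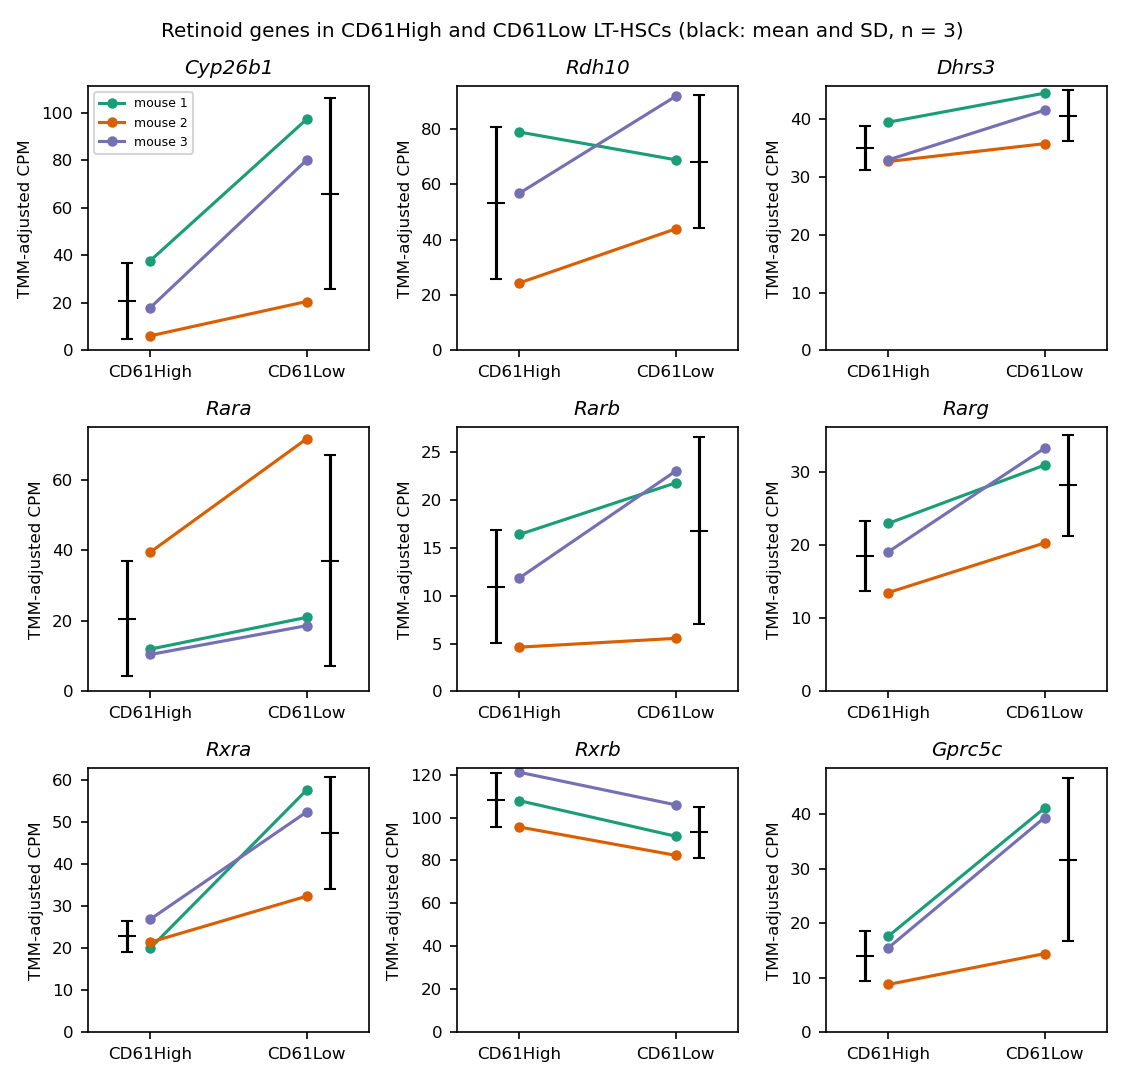
TMM-adjusted CPM (vertical axis, starting at 0) of the 9 tested members in CD61High (left) and CD61Low (right) libraries, with a line for each mouse and the mean and SD (n = 3) in black. Cyp26b1, Rara, Rarb, Rarg, Rxra, Dhrs3 and Gprc5c were lower in CD61High in each mouse, Rxrb was higher in each, and Rdh10 was higher in mouse 1 and lower in mice 2 and 3.

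The neutrophil markers moved with the same contrast, being lower in CD61High in each mouse, but Cyp26b1 and these markers did not run together between mice: mouse 2, with 68338 and 110830 CPM of neutrophil markers in CD61High and CD61Low, had the lowest Cyp26b1. The part of mature cells in the Cyp26b1 difference was not tested. Set against stem cell transcripts of the same library, which takes out the scaling between libraries, the Cyp26b1 level per kilobase of exon was 3.66%, 0.877% and 1.54% of the summed level of Kit and Slamf1 in CD61High of mice 1, 2 and 3, against 7.67%, 5.46% and 6.63% in CD61Low. On this ratio, which was chosen after the values were seen, the groups did not overlap, but it leaves out Ly6a, the sort marker that itself fell. With Ly6a added to the sum, also after the values were seen, the ratio was 2.42%, 0.600% and 1.21% in CD61High of mice 1, 2 and 3, against 3.86%, 1.93% and 3.58% in CD61Low. Against Ly6a alone it was 7.16%, 1.89% and 5.68% in CD61High and 7.77%, 2.98% and 7.80% in CD61Low. Both were lower in CD61High in each mouse, with overlapping groups. The 6 endothelial markers, none at 0 in all libraries, summed to 194, 98.9 and 202 CPM of total counts in CD61High of mice 1, 2 and 3, against 218, 49.4 and 235 CPM in CD61Low. Tek, a receptor that HSCs also express, gave most of that sum at 35.1 to 136 CPM, Kdr stood at 13.1 to 46.6 CPM and Emcn at 9.75 to 51.9 CPM, whereas Cdh5, Flt4 and Stab2 stood at 0.109 to 1.53, 1.58 to 7.45 and 0.0861 to 3.56 CPM. The endothelial sum was lower in CD61High in mice 1 and 3 and higher in mouse 2, and its part in the Cyp26b1 difference was not tested. The 8 mesenchymal stroma markers, none at 0 in all libraries, summed to 59.9, 211 and 48.0 CPM of total counts in CD61High of mice 1, 2 and 3, and to 63.5, 221 and 147 CPM in CD61Low, and were highest in mouse 2, where Cyp26b1 was lowest; the part of stroma was not tested.

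**Figure D2:**
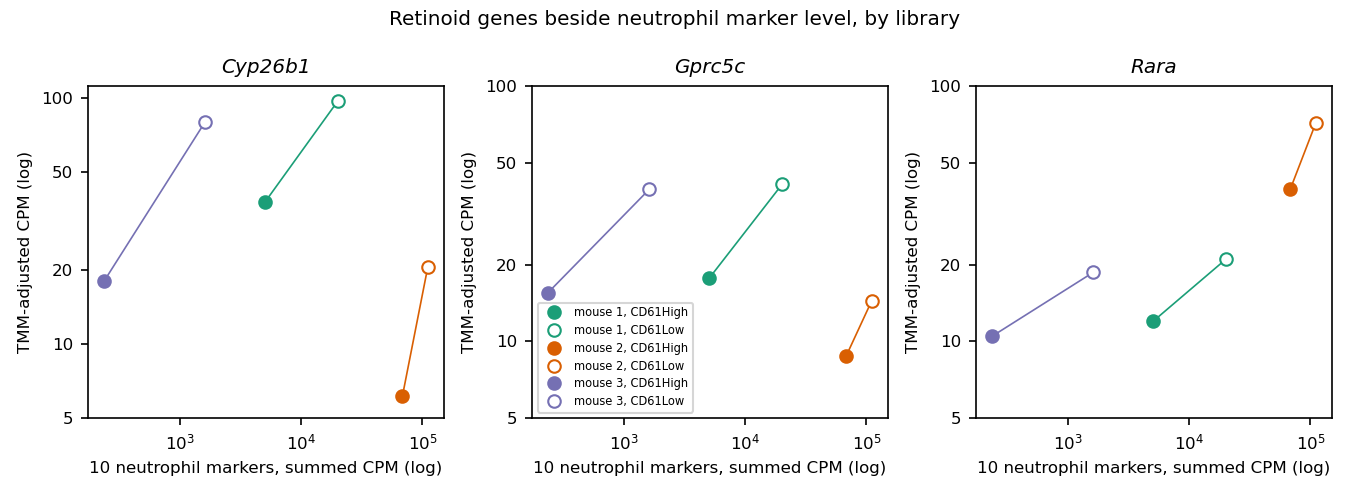
TMM-adjusted CPM of Cyp26b1, Gprc5c and Rara (vertical log axes) against the summed CPM of 10 neutrophil markers (horizontal log axes), with CD61High libraries filled, CD61Low libraries open and a line joining the libraries of a mouse. Mouse 2, farthest right, had the lowest Cyp26b1 and Gprc5c and the highest Rara, and in each mouse the CD61High library lay to the left of and below the CD61Low one.

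Cyp26b1 was the Cyp26 gene with more than 1 count. Cyp26a1 had 1 count and Cyp26c1 had 1 count, each in a single library. Crabp1, a carrier that holds retinoic acid in the cytoplasm (chromosome 9, 54764748 to 54773110), was likewise at the limit of detection, with 0 counts in the 3 CD61High libraries, 1 count in CD61Low of mouse 1 and 0 in the other CD61Low libraries. A count of 0 allows up to 3 counts, or 0.114 to 0.140 CPM of total counts in these libraries, counting error only. Crabp1 did not reach the count filter and was not tested. Its relative Crabp2 had 0 counts in each CD61High library and 5, 4 and 1 in CD61Low of mice 1, 2 and 3, and was not tested either.

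The enzymes that set the supply of retinal had estimates nearer to 0 than Cyp26b1, and neither passed the test. Rdh10, which oxidises retinol to retinal (chromosome 1, 16105774 to 16133734), had 78.8, 24.4 and 56.8 CPM in CD61High of mice 1, 2 and 3, against 68.8, 43.9 and 91.7 CPM in CD61Low. The difference in mouse 1 was opposite in sign to those in mice 2 and 3, the groups overlapped, and the log2 fold change was -0.45 (95% interval -0.99 to 0.09, adjusted p = 0.31). Dhrs3, which returns retinal to retinol and is itself induced by retinoic acid (chromosome 4, 144892827 to 144928209), had 39.5, 32.7 and 32.9 CPM in CD61High and 44.5, 35.7 and 41.5 CPM in CD61Low. It was slightly lower in CD61High in each mouse, with overlapping groups and a log2 fold change of -0.21 (95% interval -0.56 to 0.13, adjusted p = 0.437). The Rdh10 level per kilobase of exon was 141%, 52.5% and 121% of that of Dhrs3 in CD61High of mice 1, 2 and 3, and 109%, 86.3% and 155% in CD61Low, with no common direction over the mice.

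Of the 3 retinoic acid receptor genes, none passed the threshold, and each was lower in CD61High in each mouse. Rara, the receptor whose fusion with PML drives acute promyelocytic leukemia in humans (chromosome 11, 98927818 to 98974942), had 12.00, 39.5 and 10.5 CPM in CD61High of mice 1, 2 and 3, against 21.01, 71.7 and 18.7 CPM in CD61Low. Its log2 differences of -0.80, -0.86 and -0.83 were close to each other, although mouse 2 had more Rara in both gates than either of the others had in any, so the groups overlapped. The log2 fold change was -0.83 (SE 0.15, 95% interval -1.20 to -0.47) at an adjusted p of 0.0657 with the block, and -0.84 (SE 0.76) at an adjusted p of 0.917 without it. Rarg, which is linked to HSC self-renewal in mice (chromosome 15, 102234938 to 102257517), had 23.0, 13.5 and 19.1 CPM in CD61High and 30.9, 20.3 and 33.3 CPM in CD61Low. The CD61Low value of mouse 2 lay within the CD61High values, and the log2 fold change was -0.61 (SE 0.17, 95% interval -1.02 to -0.19, adjusted p = 0.128). Rarb (chromosome 14, 16430839 to 16819156), whose promoter is printed above, had 16.4, 4.62 and 11.9 CPM in CD61High and 21.8, 5.54 and 23.0 CPM in CD61Low. Mouse 2 was lowest in both gates and the log2 fold change was -0.55 (SE 0.23, 95% interval -1.09 to -0.01, adjusted p = 0.235). Of the Rarb exon sequence, 38.4% overlaps exons of Top2b and Gm48162 on the opposite strand, so its level is the least certain of the 3.

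The mix of RAR transcripts varied by mouse more than by gate. By level per kilobase of exon, Rara gave 24.4%, 69.1% and 26.3% of the summed RAR level in CD61High of mice 1, 2 and 3, and 29.7%, 73.8% and 26.0% in CD61Low. Rarg gave 47.9%, 24.2% and 49.1% in CD61High, and 44.8%, 21.4% and 47.4% in CD61Low. Mouse 2, whose libraries held the most neutrophil markers, was thus the mouse with mostly Rara in both gates, and within a mouse the gates differed by at most 5.26 percentage points in the Rara share. The RAR sum was 26.8%, 31.9% and 20.5% of the RAR and RXR sum in CD61High of mice 1, 2 and 3, against 32.6%, 45.5% and 31.2% in CD61Low, which was lower in CD61High in each mouse.

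The 2 RXR genes had estimates of opposite sign, and neither passed the test. Rxra (chromosome 2, 27676440 to 27762957) had 20.1, 21.5 and 26.9 CPM in CD61High of mice 1, 2 and 3, against 57.6, 32.4 and 52.4 CPM in CD61Low. It was the only tested member whose groups did not overlap, which was so for 1 of 9 tested members and for 14.3% of all genes tested. The log2 fold change was -1.03 (SE 0.21, 95% interval -1.53 to -0.52) at an adjusted p of 0.0769 with the block, and -1.06 (SE 0.27) at an adjusted p of 0.656 without it. The block gave Rxra -0.78 (adjusted p = 0.441) without mouse 1, -1.25 (adjusted p = 0.0379) without mouse 2, in which its difference was smallest at -0.59, and -1.06 (adjusted p = 0.249) without mouse 3. Without mouse 2 the fit called 4.77% of all genes. Rxrb, the most abundant member per kilobase of exon (chromosome 17, 34031812 to 34038399), had 108, 95.6 and 121 CPM in CD61High and 91.3, 82.4 and 106 CPM in CD61Low. It was slightly higher in CD61High in each mouse, by log2 0.24, 0.21 and 0.19, and the fitted 0.22 had an adjusted p of 0.361 (SE 0.12, 95% interval -0.08 to 0.51). Rxrg, the RXR of muscle and brain, had at most 10 counts in a library and was not tested.

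Rxra made up a smaller part of the RXR transcripts in the CD61High library of each mouse. It gave 11.9%, 14.0% and 13.9% of the summed Rxra and Rxrb level per kilobase in CD61High of mice 1, 2 and 3, against 31.5%, 22.2% and 26.5% in CD61Low. The means were 13.3% ± 1.19 in CD61High and 26.7% ± 4.62 in CD61Low (SD, n = 3 each), and the groups did not overlap. This ratio does not depend on the scaling between libraries, was chosen after the values were seen, and was given no test, since an exact two-sided test over 3 pairs cannot go below p = 0.25.

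**Figure D3:**
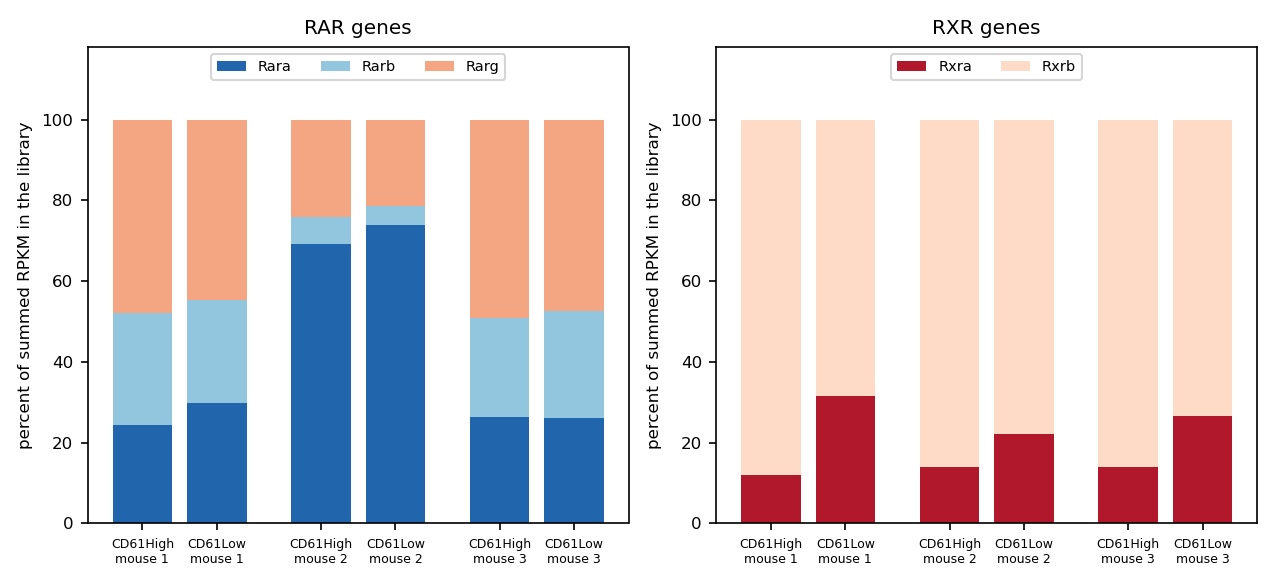
Share of each gene (percent of summed RPKM, vertical axes from 0) among the 3 RAR genes (left) and the 2 RXR genes (right) in each library, ordered by mouse with CD61High before CD61Low. Rara holds most of the RAR level in both libraries of mouse 2 alone, and Rxra holds 11.9% to 14.0% of the RXR level in CD61High against 22.2% to 31.5% in CD61Low.

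Gprc5c, the marker of dormant HSCs (chromosome 11, 114851152 to 114872617), had 17.7, 8.81 and 15.5 CPM in CD61High of mice 1, 2 and 3, against 41.2, 14.5 and 39.4 CPM in CD61Low. It was lower in CD61High in each mouse, and the groups overlapped through CD61Low of mouse 2. The log2 fold change was -1.10 (SE 0.20, 95% interval -1.57 to -0.63) at an adjusted p of 0.0657 with the block, and -1.18 (SE 0.48) at an adjusted p of 0.752 without it. Leaving out mouse 1, mouse 2 or mouse 3, the block gave -1.04 (adjusted p = 0.42), -1.30 (adjusted p = 0.0252) or -0.98 (adjusted p = 0.26). Of its relatives, Gprc5a averaged 5.17 ± 2.62 CPM in CD61High and 4.85 ± 2.32 CPM in CD61Low (SD, n = 3 each), Gprc5b 1.85 ± 0.859 CPM in CD61High and 2.703 ± 1.94 CPM in CD61Low, and neither passed the test (adjusted p = 0.913 and 0.776).

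Over the 9 tested members, 1 was called lower and 0 were called higher, against 0.16% and 0.0961% of all genes. At an unadjusted p under 0.05 there were 6 of the 9, against 20.8% of all genes, and 7 of the 9 were lower in CD61High in each mouse, against 24.7% of all genes. The median log2 fold change was -0.61 over the 9 and -0.02 over all genes tested. The members were named with earlier results of these data known, so these counts describe them and test nothing. DESeq2 with the block called 5 members lower (Cyp26b1, Rara, Rarg, Rxra and Gprc5c) and 10% of all genes, and limma voom called 4 (the same without Rarg) and 3.13% of all genes. In edgeR with the block, 3 members were called without mouse 2, against 4.77% of all genes, 4 without a count filter, against 2.5%, and 1 with relative log expression factors, against 0.564%. No member was called with upper-quartile factors or without mouse 3, where 0.0512% and 0.0435% of all genes were.

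**Figure D4:**
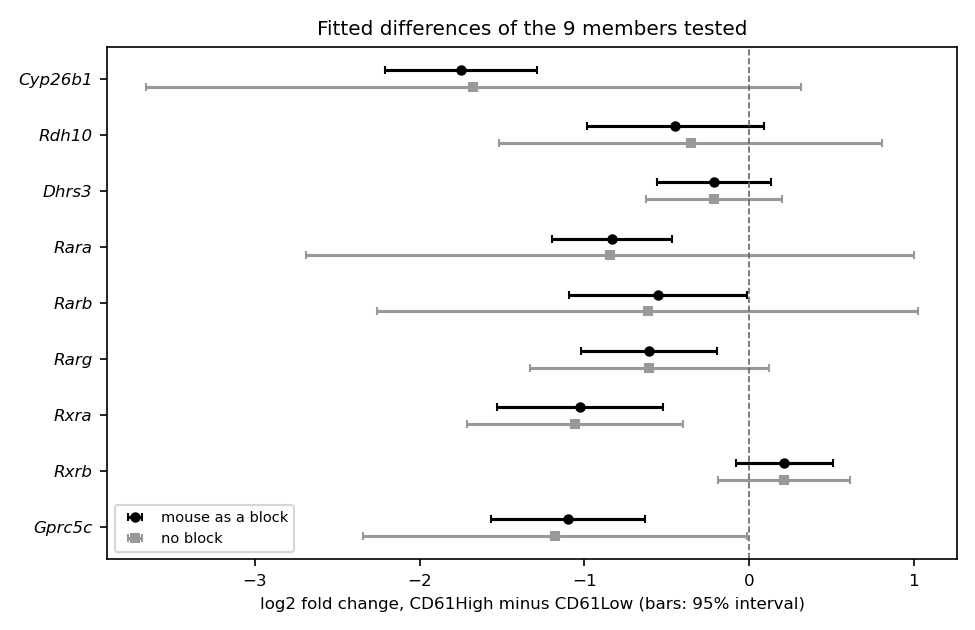
Log2 fold change, CD61High minus CD61Low (horizontal axis), of the 9 tested members with 95% intervals, from edgeR with the mouse as a block (black circles) and without it (grey squares). The estimates nearly coincide while the intervals without the block are wider, and Cyp26b1 at -1.75 lies farthest from 0.

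Levels per kilobase of exon can be compared between genes. Rxrb led with a mean of 25.3 RPKM over the 6 libraries, followed by Rdh10 at 14.6, Dhrs3 at 12.9, Cyp26b1 at 8.10, Rara at 6.62, Rxra at 6.43, Rarg at 5.48, Gprc5c at 4.36, Rarb at 2.63 and Crabp1 at 0.00758 RPKM. The ranges over libraries of neighbours in this order overlapped except for Rarb and Crabp1. Dhrs3 was the steadiest of the upper members, at 11.2 to 15.2 RPKM, and Cyp26b1 ranged from 1.15 to 18.2 RPKM.

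The rest of the pathway was read from lists written from general knowledge. Of 73 other genes in 8 lists, 44 passed the count filter and edgeR with the block called none, with 17 at an unadjusted p under 0.05, against 20.8% of all genes. Limma voom called none of them, against 3.13% of all genes, and DESeq2 called 10, against 10% of all genes. The groups did not overlap for 11 of the 44, against 14.3% of all genes. Their median log2 fold change was -0.32, with 28 below 0 and 16 above. Transcripts for taking up and storing retinol were scarce: Stra6, the retinol-binding protein receptor, had 1 count in a single library, and Lrat, which esterifies retinol, had at most 2 counts. Dgat1, an acyltransferase that can esterify retinol, had a log2 fold change of -0.35 (adjusted p = 0.37).

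Among the 11 tested oxidoreductases of retinol and retinal, 6 had a log2 fold change above 0 and 5 below. Dhrs4, a reductase active on retinal, had 57.8, 52.1 and 62.3 CPM in CD61High of mice 1, 2 and 3, against 28.7, 46.6 and 30.8 CPM in CD61Low, with no overlap (log2 fold change 0.73, SE 0.21, adjusted p = 0.129). Rdh11, another retinal reductase, had 67.2, 63.6 and 67.8 CPM in CD61High and 52.3, 49.4 and 49.5 CPM in CD61Low, also with no overlap (log2 fold change 0.39, SE 0.13, adjusted p = 0.17). The groups did not overlap for 3 of the 11 genes, against 14.3% of all genes. Dhrs9, a retinol dehydrogenase, had a log2 fold change of -1.44 (adjusted p = 0.0989) and is given by library with the neutrophil markers at the end.

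Of the genes of retinoic acid synthesis, Aldh1a1 and Aldh1a2 were tested and neither was called. Aldh1a1 had 379, 293 and 330 CPM in CD61High of mice 1, 2 and 3, and 324, 220 and 372 CPM in CD61Low. The mice did not share a direction (log2 fold change 0.16, 95% interval -0.22 to 0.53, adjusted p = 0.607). Aldh1a2 averaged 0.463 ± 0.234 CPM in CD61High and 0.606 ± 0.894 CPM in CD61Low (SD, n = 3 each; adjusted p = 0.871). The level of Cyp26b1, which clears the product, was 9.21%, 1.94% and 5.05% of that of Aldh1a1 per kilobase of exon in CD61High of mice 1, 2 and 3, against 27.7%, 8.65% and 19.9% in CD61Low, lower in each mouse. Fabp5, a fatty acid carrier that also binds retinoic acid, had 32.0, 28.5 and 30.5 CPM in CD61High and 12.6, 28.0 and 12.8 CPM in CD61Low (log2 fold change 0.88, SE 0.29, adjusted p = 0.173), with a difference in mice 1 and 3 and almost none in mouse 2.

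Coregulators of the receptors had log2 fold changes below 0 in 9 of 11 tested genes of their list, at a median of -0.35. The coactivator Ncoa3 had 33.7, 48.0 and 37.4 CPM in CD61High of mice 1, 2 and 3, against 57.7, 71.0 and 59.0 CPM in CD61Low (log2 fold change -0.67, SE 0.14, adjusted p = 0.0769). The acetyltransferases Crebbp and Ep300 had log2 fold changes of -0.56 (adjusted p = 0.0904) and -0.62 (adjusted p = 0.134). The corepressor deacetylase Hdac3 had 202, 166 and 191 CPM in CD61High of mice 1, 2 and 3, against 148, 132 and 157 CPM in CD61Low, higher in each mouse (log2 fold change 0.36, SE 0.12, adjusted p = 0.183). The groups did not overlap for these 4 of the 11 genes, 3 lower and 1 higher in CD61High, against 14.3% of all genes. Of 9 tested RXR partners, 6 were below 0 and the median was -0.52. The thyroid hormone receptors Thrb and Thra had log2 fold changes of -1.09 (adjusted p = 0.0813) and -0.52 (adjusted p = 0.19), and the orphan receptor Nr4a1, an immediate-early gene, -0.58 (adjusted p = 0.103).

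Of 13 genes listed as retinoic acid targets, 7 were tested, 6 of them had log2 fold changes below 0, and the median was -0.65. Cd38, a surface enzyme whose human gene has a retinoic acid response element, had 107, 49.7 and 76.4 CPM in CD61High of mice 1, 2 and 3, against 139, 63.8 and 148 CPM in CD61Low. It was lower in CD61High in each mouse, with overlapping groups (log2 fold change -0.56, SE 0.16, adjusted p = 0.134). Tgm2, a transglutaminase induced by retinoic acid in myeloid cells, averaged 336 ± 133 CPM in CD61High and 585 ± 341 CPM in CD61Low (log2 fold change -0.65, SE 0.20, adjusted p = 0.143), and 21.8% of its exon sequence overlaps other genes. Cebpe, a granulocyte factor induced by retinoic acid, had -1.44 (SE 0.32, adjusted p = 0.0868).

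**Figure D5:**
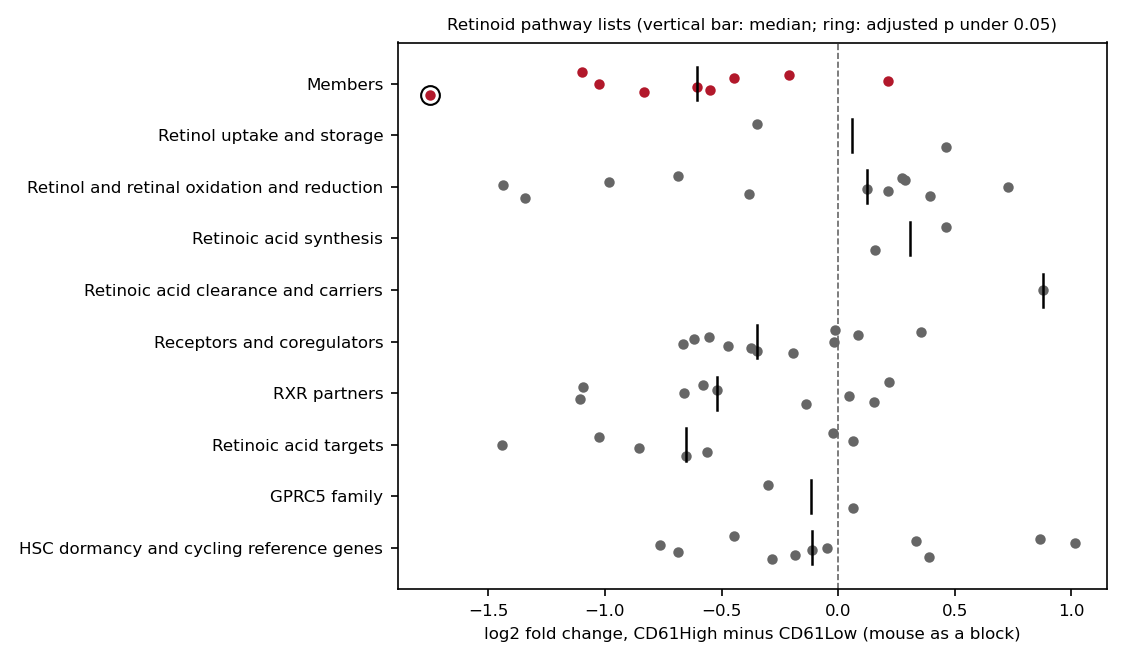
Log2 fold change, CD61High minus CD61Low with the mouse as a block (horizontal axis), of each tested gene in the 9 members (red) and in the other lists (grey), with the median of each list as a vertical bar and a ring around genes with an adjusted p under 0.05. Cyp26b1 carries the single ring. Medians lie below 0 for the members, for the lists of receptors and coregulators, RXR partners and targets, and, at -0.12 and -0.11, for the GPRC5 family and the dormancy and cycling genes. The other lists have medians above 0.

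Genes of HSC dormancy and cycling, the state that retinoids are known for in HSCs, were read the same way, and edgeR called none of the 11 with or without the block, with 3 at an unadjusted p under 0.05 with it, against 20.8% of all genes. DESeq2 called 3 of them and limma voom 1, against 10% and 3.13% of all genes. Of the 11, 4 had a log2 fold change above 0 and 7 below, at a median of -0.11, against -0.02 over all genes tested. The 3 genes named next had the smallest unadjusted p and do not stand for the list. Fgd5, expressed in HSCs, averaged 73.8 ± 31.7 CPM in CD61High and 135 ± 74.6 CPM in CD61Low (SD, n = 3 each; log2 fold change -0.76, adjusted p = 0.0803). Hlf, an HSC transcription factor, had a log2 fold change of -0.68 (adjusted p = 0.115). Cdk6, a kinase whose low level marks deeply quiescent HSCs, averaged 124 ± 3.25 CPM in CD61High and 65.6 ± 30.1 CPM in CD61Low (log2 fold change 1.01, SE 0.25, adjusted p = 0.108). Its groups did not overlap, which was so for 1 of the 11 genes and for 14.3% of all genes tested.

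The genes whose log2 CPM followed that of Cyp26b1 most closely over the 6 libraries were Ephx1, Trib3, Otud1, Rbm19 and Eno2, with Pearson's r of 0.998, 0.997, 0.995, 0.993 and 0.992. They lead a ranking of 10621 genes with at least 5 CPM on average, of which 380 had an r of at least 0.9. The libraries share mice and the difference in mature cell transcripts, so the ranking is a description of these 6 libraries.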

How the data were processed

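RNA-seq was done on 6 libraries, made per the labels' protocols from 4 ng of total RNA with SMART-Seq v4 and 1 ng of cDNA with Nextera XT, neither of which marks strand. What the authors deposited are raw counts, without normalization. The submitters' processing notes name STAR 2.7, MultiQC and edgeR; the build is not given in the sources used here, and all 55450 identifiers are those of GENCODE M21 (GRCm38). The unstranded column was used (49.9% to 50.0% of stranded counts lay on the first strand). Lines naming no gene stayed out: unmapped reads were 4.36% to 10.9%, multimapping 10.0% to 15.6%, outside genes 2.88% to 4.21% and ambiguous 3.55% to 4.37% of a library. The series table, with 17500 genes, had 0 values that differed from the library tables. All 15 pairs of libraries differed beyond sampling noise (chi-square over degrees of freedom of at least 40.6).

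The quasi-likelihood test of edgeR 4.0.16 (R 4.3.3; two-sided, robust dispersion, TMM scaling), run on the 15610 genes that filterByExpr kept and adjusted by Benjamini-Hochberg over them, was fitted with the mouse number as a block, since the titles name the animal; a call is an adjusted p under 0.05. Deviations from group means correlated within mice 1, 2 and 3 at 0.236, 0.806 and 0.761, and across mice at -0.823 to 0.374. With the block, p-values set the difference between the gates against its spread over the 3 mice, which leaves 2 residual degrees of freedom. Without the block, p-values set the difference against the spread between the libraries of a gate. In both fits edgeR moderated the spread of a gene with that of the other genes. The SE, interval and p-value of a member therefore do not rest on its own 3 differences alone. Log2 CPM of single libraries carries a prior count of 2, and RPKM is CPM per kilobase of merged exons. Alternatives were the fit without the block, other scalings, no filter, DESeq2 1.42.0, limma 3.58.1 voom and leaving out each mouse. The procedure was tested on simulated data.

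The members and gene lists were chosen with earlier results of these data known. The text names all 10 members, from each other list the genes called and otherwise up to 3 with the smallest unadjusted p, and the 5 genes most like Cyp26b1; Hdac3, the sort and endothelial markers, and genes at or near 0 counts were chosen after their values were seen. A gene that this rule would name is not reported here.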

Additional observations from a re-analysis of the deposited data

How the results depend on the processing

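All 9 tested members kept the sign of their log2 fold change under each of the 10 alternatives (no block, 3 scalings, no filter, DESeq2, limma voom and leaving out each mouse), while the calls moved. Without the replicate block edgeR called 0 genes (1023 at an unadjusted p under 0.05), 0 members and 0 other pathway genes, against 40, 1 and 0 with it. Called genes numbered 88 when scaled by relative log expression, 8 when scaled by upper quartiles (6 higher and 2 lower, against 15 and 25 with TMM), 0 when scaled by totals only (2988 had an unadjusted p under 0.05), 747 without a filter, 1566 by DESeq2 and 489 by limma voom, and ran from 0 (without mouse 1) to 742 (without mouse 2) when a mouse was left out. Called members numbered 0 when scaled by upper quartiles or totals only, 4 without a filter, 5 by DESeq2 and 4 by limma voom, and ran from 0 (without mouse 1 or mouse 3) to 3 (without mouse 2). Other pathway genes called numbered 3 without a filter and 10 by DESeq2, and ran from 0 to 5 when a mouse was left out. Cyp26b1 ranged from -1.96 to -1.55 and missed the threshold in 5 of the 10 alternatives, with adjusted p of 0.0648 under upper-quartile scaling and 0.156 under scaling by totals only. The cause of these moves was not tested. A fit on 2 mice leaves 1 residual degree of freedom within mice. Depth limits Crabp1, Cyp26a1 and Cyp26c1, each with 1 count in all.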

Other observations

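Dhrs9 and Cebpe stood apart from the other pathway genes in how far they ranged between mice. Dhrs9 had 4.48, 50.1 and 0.0739 CPM in CD61High of mice 1, 2 and 3, against 15.9, 84.3 and 0.670 CPM in CD61Low. Cebpe had 3.10, 47.4 and 0.295 CPM in CD61High and 11.7, 76.2 and 1.41 CPM in CD61Low. The order of the 6 libraries by either gene placed mouse 2 highest and mouse 3 lowest, as did the order by the 10 neutrophil markers, whose sums were 5039, 68338 and 236 CPM for the CD61High libraries and 20107, 110830 and 1615 CPM for the CD61Low ones. The part of neutrophil transcripts in either gene was not tested.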
